A study of Homo sapiens with 4 samples.

Results

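The G2 and mitosis genes are 35 genes whose products carry a cell from the end of DNA replication through chromosome condensation, spindle assembly and division. They were chosen by gene symbol, and each symbol was found once among the 36601 genes of the files. All 35 passed the filter on low counts and were among the 15066 genes tested. In human microglia-like cells treated with bacterial lipopolysaccharide (LPS) most of the 35 had lower means than without it, TOP2A and BUB1 most clearly, while PTTG1 stood higher. With the γ-secretase inhibitor semagacestat most had slightly higher means, and none passed the test unless cultures with the same number were compared with each other.

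The microglia-like cells were derived from the established human embryonic stem cell line H9 by way of monocyte-like cells, harvested on day 25 of differentiation. These were plated at 500000 cells per well and kept for 7 days in a medium containing cholesterol, IL-34 and TGF-β. Its question was how gene expression changes when γ-secretase, a membrane protease that cuts Notch and other receptors, is blocked, and whether LPS overrides such a change. Its 4 conditions had 3 cultures each, all described as biological replicates of the same line. SemaLPS cultures received semagacestat at 2 µM for 22 h and, over its final 6 h, LPS at 200 ng/mL. LPS cultures received DMSO, the solvent of the inhibitor, and the same LPS. Sema cultures received semagacestat and phosphate-buffered saline (PBS) in place of LPS. Ctrl cultures received DMSO and PBS. All 12 cultures were collected in actinomycin D at 5 µM, which stops transcription. A hashtag antibody marked the cells of each culture before about 2000 of each were mixed, and 2 droplet libraries were made from the mix.

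Entry into mitosis is driven by the kinase CDK1 with cyclins A and B. The mitotic kinases then build the spindle, kinetochore proteins tie chromosomes to it, and the anaphase-promoting complex ends mitosis by marking securin and the cyclins for destruction. The genes are transcribed late in the cell cycle, and many share 2 short promoter elements, the cell cycle genes homology region (CHR) and the CCAAT box, bound by MuvB complexes and NF-Y. Microglia and other macrophages divide in response to ligands of the CSF1 receptor such as IL-34 and M-CSF, and in mouse bone-marrow macrophages LPS is known to stop that division.

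The files held 28943 barcodes and 900761329 unique molecular identifiers (UMIs, each a captured RNA molecule). Of these barcodes, 14932 were kept as single cells of known culture, between 1062 and 1651 cells and 30302342 and 51286977 UMIs per culture. All 12 markers of microglia and macrophages were above 1 CPM (UMIs relative to the culture's TMM-scaled total), with sums of 7450 to 7960 CPM in SemaLPS, 7230 to 7650 in LPS, 8000 to 8370 in Sema and 7690 to 8130 in Ctrl cultures. Markers of monocytes summed to 1160 to 1310 CPM in SemaLPS and 1220 to 1260 in LPS cultures, against 336 to 354 in Sema and 320 to 344 in Ctrl cultures. Fibroblast markers reached 29.4 CPM in 1 Ctrl culture, and 5 of the 6 erythroid markers were at 0 throughout. The labels were checked with HES1, a Notch target, at 1.32 to 1.51 CPM in SemaLPS and 2.74 to 3.10 in LPS cultures, and at 1.39 to 1.73 in Sema and 2.74 to 3.21 in Ctrl cultures. IL1B, an LPS-induced cytokine, stood at 1480 to 2380 CPM with LPS and 74.0 to 98.9 without. The 2 libraries shared 91 barcodes, which were counted as separate cells. All p-values rest on the spread among cultures of 1 line.

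The promoters of 4 members are shown because the calls of their genes differed under LPS. TOP2A and CCNB2 fell, CCNB1 did not pass the test in either direction and PTTG1 rose. Each is the 300 bases around the start given by RefSeq on GRCh38.p14, read 5′ to 3′ on the gene's strand. Capitals mark the CHR (TTTGAA, or TTCAAA on the other strand) and the CCAAT box (CCAAT, or ATTGG on the other strand), both searched on both strands. The windows are chr17:40417847-40418146 on the minus strand for TOP2A, chr15:59104896-59105195 on the plus strand for CCNB2, chr5:69166900-69167199 on the plus strand for CCNB1 and chr5:160421605-160421904 on the plus strand for PTTG1.
TOP2A: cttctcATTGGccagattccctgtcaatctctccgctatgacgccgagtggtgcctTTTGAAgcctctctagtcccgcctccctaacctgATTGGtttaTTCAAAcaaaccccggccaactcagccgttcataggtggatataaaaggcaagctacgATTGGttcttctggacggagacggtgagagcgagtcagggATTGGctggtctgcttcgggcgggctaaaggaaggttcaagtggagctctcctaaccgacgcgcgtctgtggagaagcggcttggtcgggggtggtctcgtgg
CCNB2: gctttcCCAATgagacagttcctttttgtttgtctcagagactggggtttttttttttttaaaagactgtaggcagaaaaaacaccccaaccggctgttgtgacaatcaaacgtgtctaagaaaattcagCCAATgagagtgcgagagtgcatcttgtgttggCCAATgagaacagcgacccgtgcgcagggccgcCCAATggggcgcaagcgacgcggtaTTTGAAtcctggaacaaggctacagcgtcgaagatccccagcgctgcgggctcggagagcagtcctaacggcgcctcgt
CCNB1: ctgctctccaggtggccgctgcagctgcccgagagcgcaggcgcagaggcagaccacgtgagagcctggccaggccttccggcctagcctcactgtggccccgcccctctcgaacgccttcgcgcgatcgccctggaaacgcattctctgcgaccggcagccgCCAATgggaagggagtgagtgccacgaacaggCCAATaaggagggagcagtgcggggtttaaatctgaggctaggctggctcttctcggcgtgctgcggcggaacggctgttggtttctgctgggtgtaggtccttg
PTTG1: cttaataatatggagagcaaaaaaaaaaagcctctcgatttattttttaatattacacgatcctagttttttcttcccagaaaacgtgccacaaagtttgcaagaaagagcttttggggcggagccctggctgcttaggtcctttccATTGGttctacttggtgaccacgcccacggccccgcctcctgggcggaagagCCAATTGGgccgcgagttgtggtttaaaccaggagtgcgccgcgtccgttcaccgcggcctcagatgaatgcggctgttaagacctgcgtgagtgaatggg
The TOP2A window held 2 CHR and 4 CCAAT matches, and the CCNB2 window 1 and 4. The CCNB1 and PTTG1 windows held no TTTGAA on either strand, with 2 and 3 CCAAT matches, of which 2 overlap in PTTG1. Other forms of the CHR were not marked, so that these windows are not shown to lack one. Promoters were found for 29 of the 35 members in the RefSeq table of 35116. TTTGAA stood in 20 of the 29 (69.0%), against 15.2% of all promoters, and CCAAT in 24 (82.8%), against 34.6%. The variant TTCGAA stood in the windows of BUB1 and NDC80 (6.9% of members, against 1.45% of all). Among members that fell in the average LPS effect, 7 of 11 windows held TTTGAA, against 13 of the 17 that did not pass the test. CCAAT stood in 11 of the 11 and in 12 of the 17. A match is a description of these letters and not a measured site.

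The members spanned a wide range of levels. UMIs count molecules by their 3′ ends, so that levels were not divided by gene length. Mean CPM over the 12 cultures ran between 2.29 for KIF20A (1026 UMIs in all) and 75.4 for TOP2A (34101 UMIs), and 13 members were at 20 CPM or more. The genes lie on 13 chromosomes, 6 of them on chromosome 1. Cultures with the same number moved together. The number 1 culture was the highest of its condition for 29 members in all 4 conditions, and in 3 or 4 conditions for all 35. In each condition the number 1 culture also had the lowest share of cells above 10% mitochondrial UMIs, between 20.3 and 31.1%, against 24.2 to 39.1% in the others; its part in the levels was not tested. The labels do not say what the numbers stand for.

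Summed over the 35 genes, the level was 976, 645 and 623 CPM in SemaLPS cultures 1, 2 and 3 (mean 748 ± 198 SD, n = 3) and 726, 511 and 660 CPM in the LPS cultures (632 ± 110.0). It was 1021, 792 and 881 CPM in the Sema cultures (898 ± 116) and 1104, 573 and 759 CPM in the Ctrl cultures (812 ± 269.6). The ranges overlapped within each of the comparisons made here, LPS with Ctrl, SemaLPS with Sema, Sema with Ctrl and SemaLPS with LPS. Within the numbers the log2 ratio of the sums was −0.605, −0.165 and −0.202 for LPS against Ctrl and −0.065, −0.296 and −0.499 for SemaLPS against Sema, lower with LPS in each. A lower sum per culture cannot tell fewer cells with these transcripts from less RNA in each. Counts in single cells are given below. They cannot fully separate these readings either, since less RNA in a cell also takes it below a limit on detected members. All values per culture that follow are in the order of culture number.

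**Figure D1:**
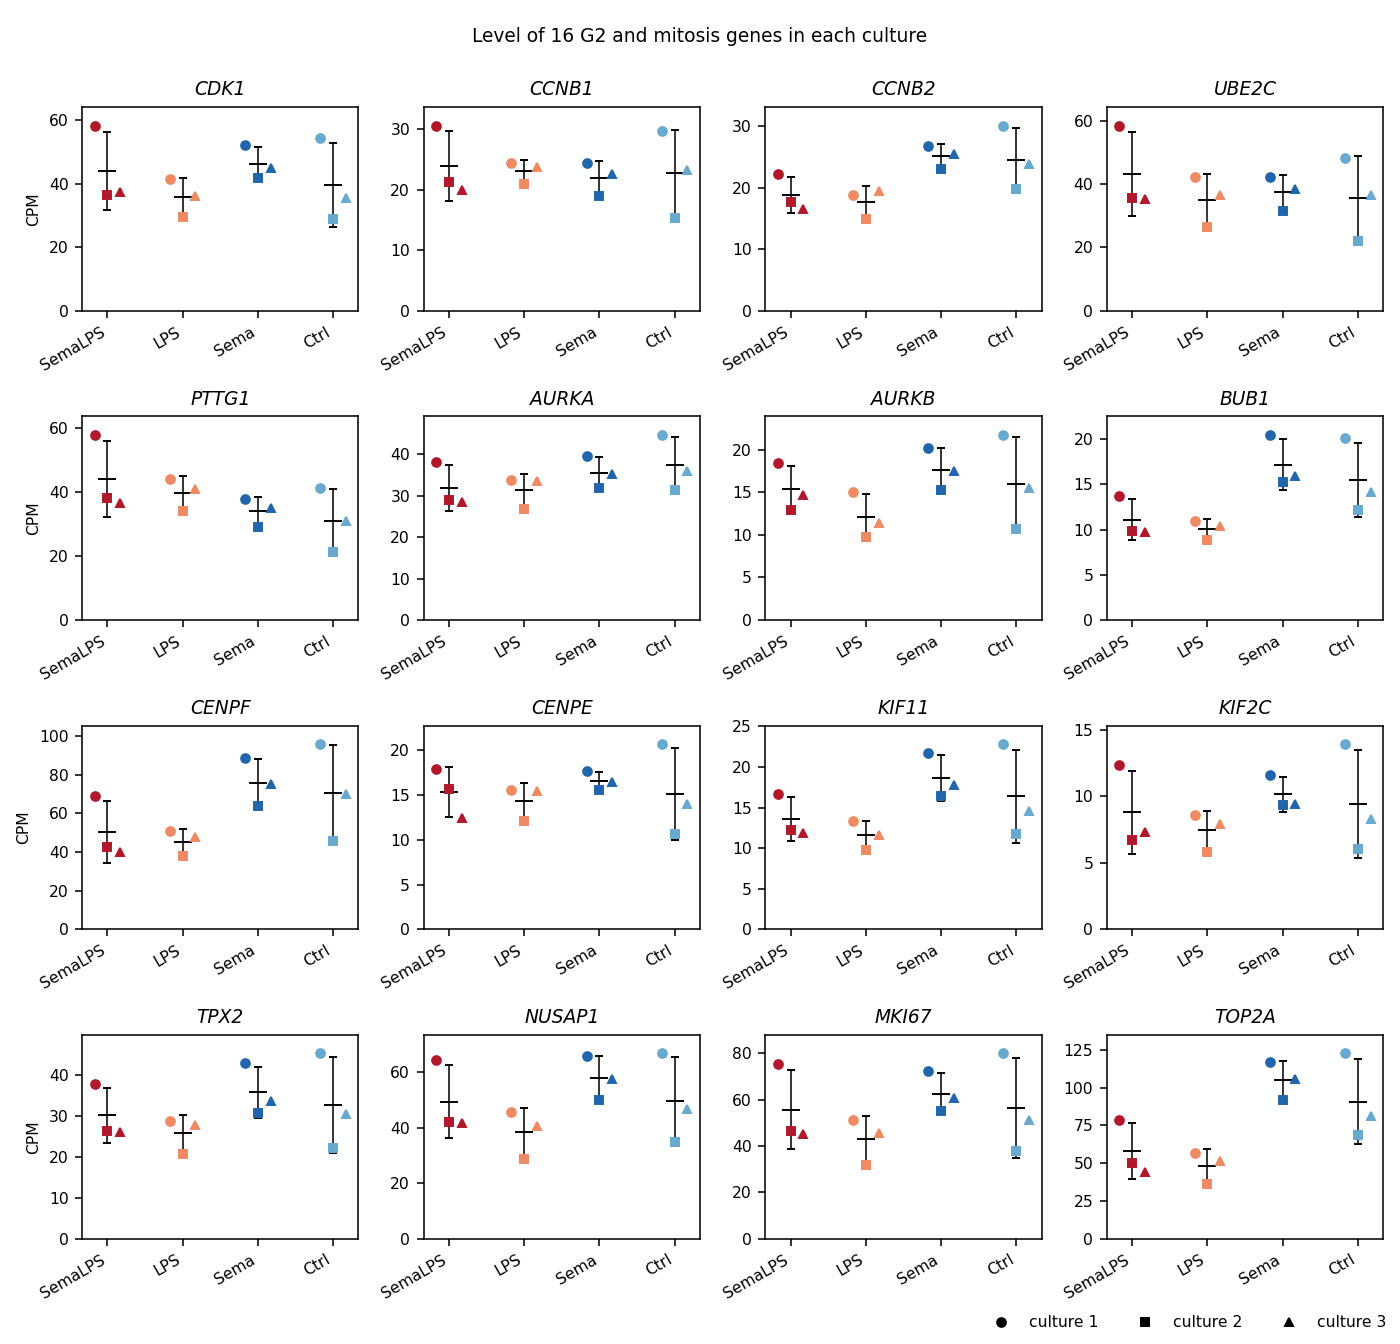
Level in CPM (y axes, linear, from 0) of 16 members in each culture, by condition (x axes). Symbols are cultures 1, 2 and 3, the horizontal line is the mean and the bar the SD of 3 cultures; in the TOP2A panel every culture with LPS apart from SemaLPS culture 1 lies below every culture without it.

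LPS was set against no LPS without the inhibitor (LPS against Ctrl), with it (SemaLPS against Sema), and over both (the average LPS effect). Over both, 12 of the 35 members fell, 1 rose and 22 did not pass the quasi-likelihood test of edgeR at 0.05, adjusted by Benjamini-Hochberg over all genes. Those that fell were CCNA2, CCNB2, NEK2, TTK, BUB1, CENPA, CENPF, KIF11, KIF14, KIF20A, TOP2A and DLGAP5, and the one that rose was PTTG1. The background was high: of all 15066 genes, 35.5% fell and 35% rose. In this fit, made without the culture number as a block, the members' share of falls was near that of all genes. Their share of rises was far under it. With the number as a block their share of falls was above that of all genes, as given below. The median log2 fold change of the members was −0.30, with 3 of 35 above 0, beside −0.02 for all genes. In LPS against Ctrl 6 members fell (29% of all genes fell and 30.3% rose) and none rose, and in SemaLPS against Sema 5 fell (30.3% fell and 31.0% rose) and none rose. DESeq2 called 6 and 4 members lower and none higher in these 2, and 10 lower and none higher over both, and 9 and 7 members had an unadjusted p under 0.05 by edgeR. BUB1, CCNB2, CENPF and TOP2A fell in both comparisons, which share no cultures. The CPM of CCNA2, CCNB2, BUB1, KIF20A and TOP2A were lower in every LPS than in every Ctrl culture, 5 members where 31.3% of all genes were lower and 32.2% higher with no overlap. Those of CCNB2, BUB1, KIF14 and TOP2A were lower in every SemaLPS than in every Sema culture, 4 members where 33.4% were lower and 33.5% higher.

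The number of members past the threshold rested on how the cultures were paired and on single cultures. With the culture number as a block, 29 members fell and PTTG1 rose in the average LPS effect (38.3% and 36.9% of all genes), 24 fell and PTTG1 rose in LPS against Ctrl (32.3% and 33%), and 20 fell and PTTG1 rose in SemaLPS against Sema (34.0% and 33.8%). The 5 members outside the threshold in the average effect were then CCNB1, CDK1, CENPE, CKAP2L and UBE2C. Without the block, LPS against Ctrl gave 2 members without culture Ctrl-1 or LPS-2 and 19 without Ctrl-2. SemaLPS against Sema gave 2 without Sema-1, Sema-3, SemaLPS-2 or SemaLPS-3, 8 without Ctrl-1 and 11 without SemaLPS-1. The average effect gave 8 without Ctrl-1, LPS-2, SemaLPS-2 or SemaLPS-3, 22 without Ctrl-2 and 24 without SemaLPS-1. Scaling also moved the counts: with library size alone the median of all genes in the average effect shifted to −0.23, and 28 members fell and none rose (55.0% of all genes fell and 19.8% rose). With the number of cells as the scale it shifted to −0.10, and 21 fell and none rose (42.0% and 28.4%). With cells of up to 20% mitochondrial UMIs kept, 7 members fell and 1 rose in the average effect (36.2% and 35.1%), and 3 fell in each of the other comparisons (29.6% in LPS against Ctrl and 31.1% in SemaLPS against Sema).

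TOP2A, the topoisomerase that untangles sister chromosomes and the most abundant member, had the largest fall. It stood at 78.8, 50.2 and 44.3 CPM in the SemaLPS cultures and 56.96, 36.4 and 51.6 CPM in the LPS cultures, against 117, 91.97 and 106 CPM in the Sema cultures and 122.6, 68.3 and 81.4 CPM in the Ctrl cultures. No LPS culture reached a Ctrl culture and no SemaLPS culture reached a Sema culture. Its log2 fold change was −0.91 (SE 0.24, adjusted p = 0.00448) in LPS against Ctrl, −0.86 (SE 0.23, adjusted p = 0.00543) in SemaLPS against Sema and −0.89 (SE 0.17, adjusted p = 0.000279) over both. The call held in each of the 43, 43 and 41 other settings tried for these comparisons, with values over both between −1.10 and −0.74. TOP2A lies on chromosome 17 at 40388516 to 40417950 on the minus strand (GENCODE v29, GRCh38, as for the other positions here).

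Among the other chromosome proteins, MKI67, the Ki-67 marker that coats mitotic chromosomes, stood at 75.3, 46.6 and 45.02 CPM in the SemaLPS cultures and 51.1, 31.7 and 45.7 CPM in the LPS cultures, against 72.2, 54.9 and 60.6 CPM in the Sema cultures and 79.99, 37.7 and 51.1 CPM in the Ctrl cultures. These ranges overlapped, and its average log2 fold change was −0.28 (SE 0.18, adjusted p = 0.18; with the block 0.00256). NCAPG, a subunit of the condensin complex, had −0.20 (SE 0.15) and HMGB2, a chromatin protein, −0.28 (SE 0.15), neither past the threshold without the block. With it both fell (adjusted p = 0.0146 and 0.000145).

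The cyclins differed in their calls under LPS, and they were not tested against each other. CCNB2, cyclin B2, fell and stood at 22.2, 17.8 and 16.5 CPM in the SemaLPS cultures and 18.9, 14.9 and 19.4 CPM in the LPS cultures, against 26.8, 23.0 and 25.6 CPM in the Sema cultures and 30.1, 19.8 and 23.9 CPM in the Ctrl cultures. Its LPS cultures lay below its Ctrl cultures and its SemaLPS cultures below its Sema cultures. The log2 fold change was −0.47 (SE 0.15, adjusted p = 0.0138), −0.42 (SE 0.14, adjusted p = 0.022) and −0.44 (SE 0.10, adjusted p = 0.00156) over both. The first call was lost without Ctrl-1 (−0.30, adjusted p = 0.0803) or LPS-2 (−0.36, adjusted p = 0.0691). The second was lost without Sema-1, Sema-3, SemaLPS-2 or SemaLPS-3 (−0.42 to −0.33, adjusted p between 0.0559 and 0.0889) and with all cells of 1 hashtag (−0.35, adjusted p = 0.0568). The average call was lost in none of the 41 other settings. CCNA2, cyclin A2, which acts in S phase and G2, had −0.51 (SE 0.20, adjusted p = 0.0426) in LPS against Ctrl and −0.25 (SE 0.19, adjusted p = 0.269) in SemaLPS against Sema. With the block it fell in both (−0.49, SE 0.10, adjusted p = 0.000417, and −0.26, SE 0.09, adjusted p = 0.0203). Without the block the call in LPS against Ctrl was lost with DESeq2 (adjusted p = 0.0767), with the 2 conditions alone (0.0562), in library 1 alone (0.179), with 3 other cell filters (0.0686 to 0.112) and without Ctrl-1 (−0.19, adjusted p = 0.312), LPS-1, LPS-2, LPS-3 or Sema-3 (0.0548 to 0.144). The average call (−0.38, SE 0.14, adjusted p = 0.0248) was lost in 9 of 41 settings, among them DESeq2 (0.0514) and leaving out Ctrl-1, Sema-1, LPS-2, SemaLPS-2 or SemaLPS-3 (0.0569 to 0.0655). EXOSC9 overlaps CCNA2 on the opposite strand, so that CCNA2 is uncertain if strand was not used in counting.

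CCNB1, cyclin B1, passed the test in neither direction. It stood at 30.6, 21.2 and 19.9 CPM in the SemaLPS cultures and 24.5, 20.9 and 23.8 CPM in the LPS cultures, against 24.4, 18.9 and 22.6 CPM in the Sema cultures and 29.7, 15.3 and 23.2 CPM in the Ctrl cultures. These ranges overlapped in each comparison. The average log2 fold change was 0.07 (SE 0.14, adjusted p = 0.676), and −0.14 with library size alone or −0.01 with the number of cells as the scale. CDK1, the kinase both cyclins activate, stood at 58.3, 36.49 and 37.4 CPM in the SemaLPS cultures and 41.6, 29.5 and 36.1 CPM in the LPS cultures, against 52.2, 41.9 and 45.03 CPM in the Sema cultures and 54.3, 28.8 and 35.5 CPM in the Ctrl cultures. Its ranges overlapped too, and its average log2 fold change was −0.11 (SE 0.15, adjusted p = 0.536). CCNB1 and CCNB2 lie on chromosomes 5 (69167010 to 69178245, plus strand) and 15 (59105078 to 59125045, plus strand).

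Of the 3 members around the anaphase-promoting complex, none fell without the block. PTTG1, securin, blocks the protease that separates sister chromatids until the complex destroys securin. It stood at 57.8, 38.04 and 36.6 CPM in the SemaLPS cultures and 44.2, 34.2 and 41.1 CPM in the LPS cultures, against 37.7, 29.2 and 35.1 CPM in the Sema cultures and 41.1, 21.2 and 30.8 CPM in the Ctrl cultures. The ranges overlapped, but within each number the culture with LPS was the higher one, in both comparisons. The log2 fold change was 0.36 (SE 0.21, adjusted p = 0.165) in LPS against Ctrl, 0.37 (SE 0.21, adjusted p = 0.136) in SemaLPS against Sema and 0.37 (SE 0.15, adjusted p = 0.0408) over both. The block gave 0.37 (SE 0.07, adjusted p = 0.00013). The call over both was lost with DESeq2 (adjusted p = 0.0757), with library size alone (0.16, adjusted p = 0.356), with the number of cells as the scale (0.28, adjusted p = 0.0933), in library 2 alone (0.31, adjusted p = 0.121) and on leaving out any 1 of LPS-1, SemaLPS-1, Ctrl-2, Sema-2, Ctrl-3, Sema-3 and LPS-3. PTTG1 lies on chromosome 5 at 160421822 to 160428744 on the plus strand, and its near copy PTTG2 had 14 UMIs in all.

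UBE2C, the ubiquitin-conjugating enzyme of the same complex, stood at 58.5, 35.6 and 35.2 CPM in the SemaLPS cultures and 42.3, 26.4 and 36.54 CPM in the LPS cultures, against 42.3, 31.6 and 38.6 CPM in the Sema cultures and 48.3, 21.9 and 36.6 CPM in the Ctrl cultures. These ranges overlapped. Its average log2 fold change was 0.09 (SE 0.18, adjusted p = 0.684) and −0.12 with library size alone. CDC20, which activates the complex, had −0.40 (SE 0.21, adjusted p = 0.0993), and with the block −0.38 (SE 0.11, adjusted p = 0.00606).

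The mitotic kinases mostly stood lower with LPS, and 3 of the 6 fell. BUB1, a kinase of the spindle checkpoint, stood at 13.8, 9.82 and 9.75 CPM in the SemaLPS cultures and 10.98, 8.82 and 10.3 CPM in the LPS cultures, against 20.5, 15.2 and 15.9 CPM in the Sema cultures and 20.1, 12.2 and 14.1 CPM in the Ctrl cultures. LPS cultures lay below Ctrl cultures, and SemaLPS cultures below Sema cultures. Its log2 fold change was −0.62 (SE 0.19, adjusted p = 0.0108) in LPS against Ctrl, −0.63 (SE 0.18, adjusted p = 0.00763) in SemaLPS against Sema and −0.63 (SE 0.13, adjusted p = 0.000637) over both. Of all other settings only leaving out Ctrl-1 ended the call in LPS against Ctrl (−0.39, adjusted p = 0.0664), and none ended it in the other 2. NEK2, a kinase that splits centrosomes, had an average of −0.63 (SE 0.18, adjusted p = 0.00581), lost in library 1 alone (−0.23, adjusted p = 0.175). TTK, which starts the checkpoint signal, had −0.28 (SE 0.12, adjusted p = 0.0467). That call was lost in 13 of 41 settings: on leaving out any culture but Ctrl-2, Sema-2 and SemaLPS-1 (adjusted p between 0.0511 and 0.134), in library 1 alone (−0.10, adjusted p = 0.555) and with 3 other cell filters (0.0617 to 0.165).

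The aurora kinases were the most abundant of these 6 kinases. AURKA, at the spindle poles, stood at 38.1, 28.9 and 28.4 CPM in the SemaLPS cultures and 33.8, 26.8 and 33.5 CPM in the LPS cultures, against 39.6, 31.8 and 35.1 CPM in the Sema cultures and 44.6, 31.4 and 35.9 CPM in the Ctrl cultures. AURKB, which corrects faulty attachments at the centromere, stood at 18.4, 12.96 and 14.6 CPM in the SemaLPS cultures and 15.04, 9.69 and 11.4 CPM in the LPS cultures, against 20.2, 15.3 and 17.5 CPM in the Sema cultures and 21.7, 10.7 and 15.5 CPM in the Ctrl cultures. Both sets of ranges overlapped, with averages of −0.20 (SE 0.10, adjusted p = 0.08) and −0.31 (SE 0.15, adjusted p = 0.0905). With the block both fell in both LPS comparisons. PLK1, the polo-like kinase that acts in every phase of mitosis, had −0.31 (SE 0.17, adjusted p = 0.127), and with the block −0.30 (SE 0.11, adjusted p = 0.0177).

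At the centromere and kinetochore 2 of 6 members fell. CENPF, a kinetochore protein that peaks in G2, stood at 68.7, 42.3 and 40.1 CPM in the SemaLPS cultures and 50.6, 37.95 and 47.5 CPM in the LPS cultures, against 88.5, 63.7 and 75.1 CPM in the Sema cultures and 95.7, 45.7 and 69.9 CPM in the Ctrl cultures. Ctrl culture 2 lay within the LPS range and SemaLPS culture 1 within the Sema range. The log2 fold change was −0.63 (SE 0.24, adjusted p = 0.0385), −0.59 (SE 0.24, adjusted p = 0.0475) and −0.61 (SE 0.17, adjusted p = 0.00575) over both. DESeq2 made neither of the first 2 calls (adjusted p = 0.0709 and 0.0979). The first was also lost in library 1 alone, with 2 other cell filters and without Ctrl-1 (−0.35, adjusted p = 0.221), Ctrl-3, LPS-2, LPS-3 or Sema-3 (0.0501 to 0.134). The second was lost in library 1 alone, with 3 other cell filters and without Sema-1, SemaLPS-2, SemaLPS-3, Sema-3, LPS-1, LPS-2, LPS-3 or Ctrl-3 (0.0532 to 0.164), and the average call in none of the 41 settings. CENPA, the histone that marks centromeres, had an average of −0.49 (SE 0.18, adjusted p = 0.0247). This call was lost in 7 of 41 settings, in library 1 alone (0.099), with 2 other cell filters (0.0592 and 0.0677) and without Ctrl-1, LPS-2, SemaLPS-2 or SemaLPS-3 (0.0561 to 0.0737), and CENPA shares its strand with the overlapping gene SLC35F6. CENPE, a kinesin that carries chromosomes to the spindle equator, stood at 17.9, 15.6 and 12.4 CPM in the SemaLPS cultures and 15.5, 12.1 and 15.5 CPM in the LPS cultures, against 17.7, 15.6 and 16.4 CPM in the Sema cultures and 20.7, 10.6 and 13.95 CPM in the Ctrl cultures. Its ranges overlapped, with an average of −0.09 (SE 0.14, adjusted p = 0.568). NDC80, BUB1B and BIRC5 had averages of −0.24, −0.36 and −0.19, none past the threshold without the block. With it all 3 fell (adjusted p = 0.0117, 0.000104 and 0.00988).

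Of the 5 kinesins, 3 fell. KIF11, which pushes the spindle poles apart, stood at 16.7, 12.2 and 11.8 CPM in the SemaLPS cultures and 13.4, 9.78 and 11.6 CPM in the LPS cultures, against 21.8, 16.4 and 17.8 CPM in the Sema cultures and 22.8, 11.8 and 14.6 CPM in the Ctrl cultures. One LPS culture lay above the lowest Ctrl culture and 1 SemaLPS culture above the lowest Sema culture. Its average was −0.48 (SE 0.15, adjusted p = 0.0101), a call that held in all 41 other settings, as did that of KIF14, a kinesin of cell separation (−0.57, SE 0.18, adjusted p = 0.0127). KIF20A, a kinesin of the central spindle, fell by 0.50 (SE 0.20, adjusted p = 0.0367) from few UMIs, and it overlaps BRD8 and CDC23 on the other strand. Its call was lost in 13 of 41 settings, in library 1 alone (adjusted p = 0.168), with 3 other cell filters (0.0631 to 0.1) and on leaving out any culture but SemaLPS-1, Ctrl-2 and Ctrl-3 (0.0507 to 0.108). KIF2C, which shortens microtubules, stood at 12.4, 6.74 and 7.297 CPM in the SemaLPS cultures and 8.62, 5.81 and 7.898 CPM in the LPS cultures, against 11.6, 9.34 and 9.47 CPM in the Sema cultures and 13.9, 6.02 and 8.33 CPM in the Ctrl cultures. These ranges overlapped, with an average of −0.28 (SE 0.20, adjusted p = 0.223). KIF23, another kinesin of the central spindle, had −0.30 (SE 0.19, adjusted p = 0.185). With the block both fell (adjusted p = 0.0126 and 0.0146).

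Among the 7 other spindle proteins DLGAP5, which bundles spindle fibres, fell (−0.48, SE 0.18, adjusted p = 0.0321). The call was lost in 11 of 41 settings, with DESeq2 (0.0668), in library 1 alone (−0.23, adjusted p = 0.172), with 2 other cell filters (0.0992 and 0.102) and without Ctrl-1 (−0.30, adjusted p = 0.0989), Sema-1, LPS-2, SemaLPS-2, Sema-3, LPS-3 or SemaLPS-3 (0.0516 to 0.0785). NUSAP1, a microtubule stabiliser, stood at 64.6, 41.95 and 41.7 CPM in the SemaLPS cultures and 45.8, 28.8 and 40.5 CPM in the LPS cultures, against 65.8, 49.98 and 57.5 CPM in the Sema cultures and 66.8, 34.8 and 46.9 CPM in the Ctrl cultures. TPX2, which activates AURKA, stood at 37.95, 26.4 and 26.2 CPM in the SemaLPS cultures and 28.8, 20.8 and 27.8 CPM in the LPS cultures, against 42.9, 30.7 and 33.8 CPM in the Sema cultures and 45.4, 22.3 and 30.6 CPM in the Ctrl cultures. The ranges of both overlapped in each comparison, and both had averages of −0.30 (SE 0.16, adjusted p = 0.116 and 0.11). The other 4 lay between −0.32 for ASPM and −0.06 for CKAP2L. With the block 6 of the 7 fell, all but CKAP2L.

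**Figure D2:**
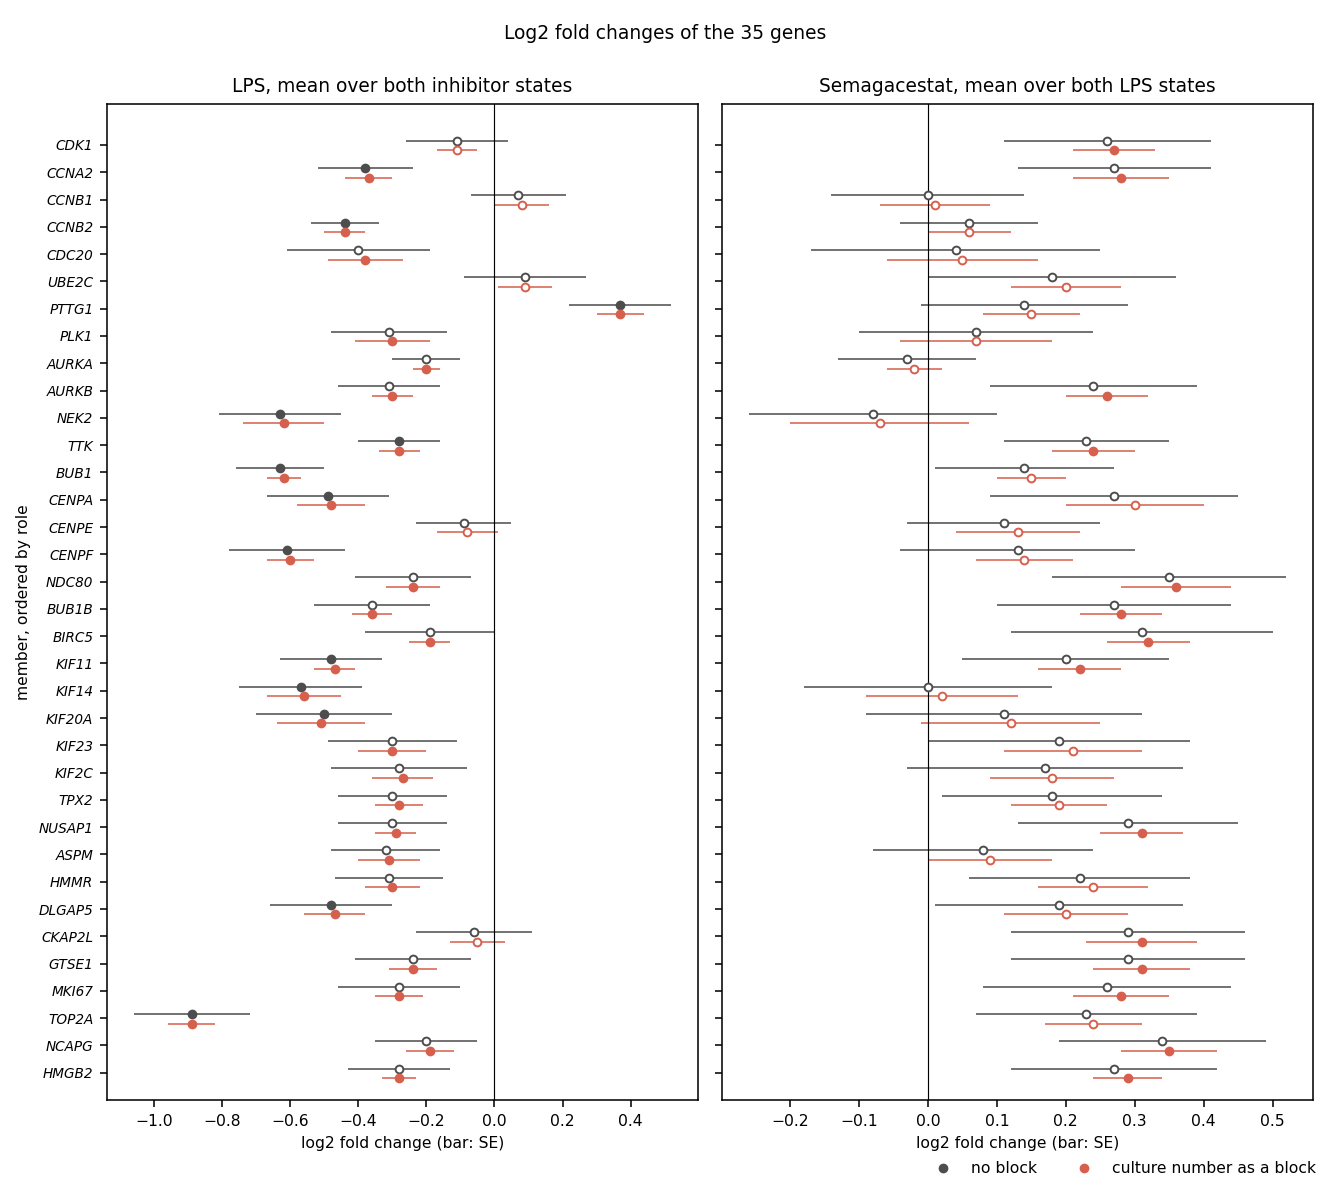
Log2 fold change (x axes, bar: SE) of the 35 members, ordered by role (y axis), for LPS averaged over both inhibitor states (left) and semagacestat averaged over both LPS states (right), without and with the culture number as a block. Filled points passed the threshold of 0.05 on the adjusted p. On the left TOP2A lies farthest below 0 and PTTG1 farthest above, and on the right no point is filled without the block and 14 are filled with it.

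The members also shifted against each other, a measure that does not depend on how a culture is scaled. Each member was expressed as a percent of all UMIs of the 35 genes in its culture. In the 6 cultures with LPS against the 6 without, 4 members had a lower percent with no overlap and 4 a higher one. Over all 15066 genes divided in the same way by the members' UMIs, 4.99% were lower and 8.24% higher with no overlap. The members' sum itself ran from 511 to 1104 CPM between cultures, and the members vary with it while other genes need not. Those shares are therefore not a like background for the 4 and 4 members. TOP2A made up 7.10 to 8.07% with LPS and 10.7 to 12.0% without. CENPF made up 6.43 to 7.42% against 7.97 to 9.21%, BUB1 1.41 to 1.72% against 1.80 to 2.12%, and KIF11 1.71 to 1.91% against 1.92 to 2.13%. In the other direction, PTTG1 made up 5.87 to 6.69% with LPS and 3.69 to 4.06% without. UBE2C made up 5.16 to 5.99% against 3.82 to 4.82%, CDK1 5.47 to 6.00% against 4.67 to 5.29%, and CCNB1 3.13 to 4.09% against 2.39 to 3.05%. MKI67 made up 6.21 to 7.72% with LPS and 6.58 to 7.24% without, which overlap. The percents show unequal change and do not tell which gene stayed level.

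**Figure D3:**
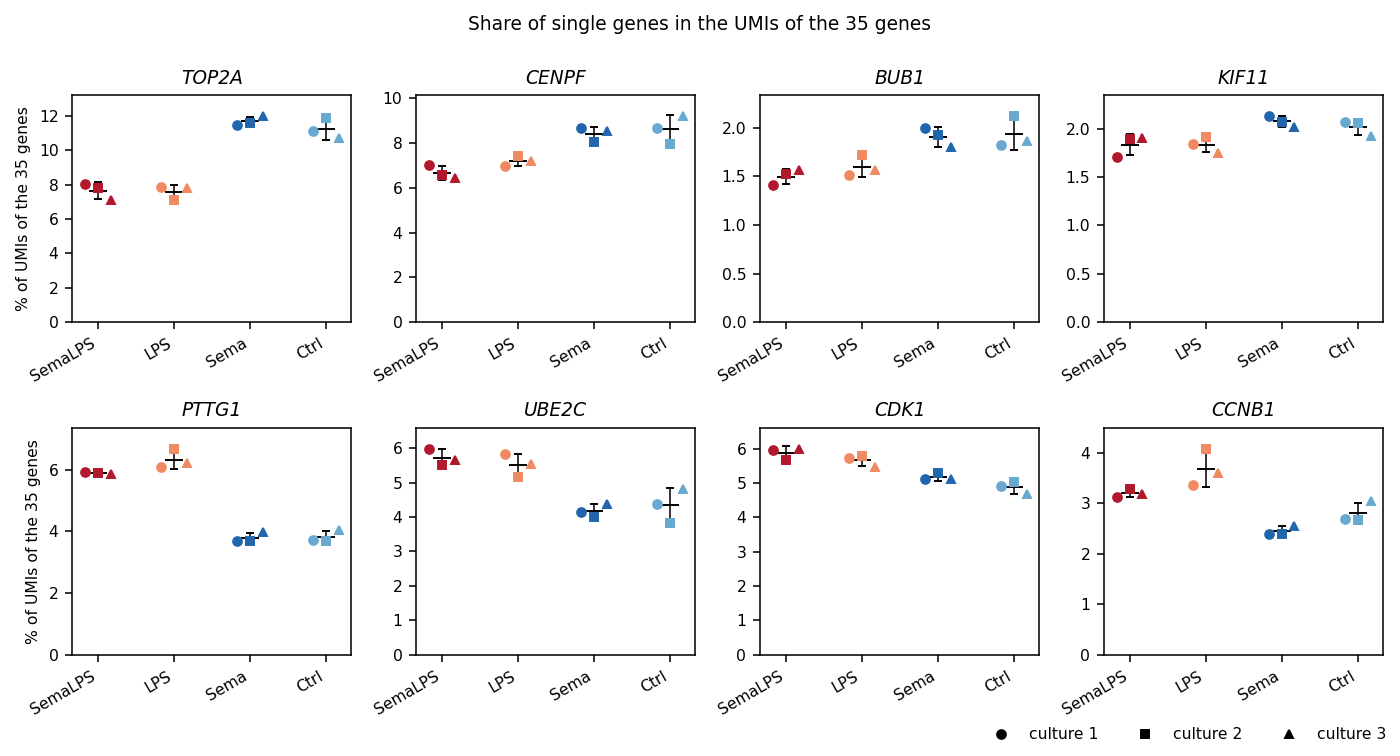
Percent of all UMIs of the 35 genes (y axes, from 0) taken by 8 members in each culture, by condition (x axes), with the mean and SD of 3 cultures. In each of the 8 panels the 6 cultures with LPS do not overlap with the 6 without, lower for TOP2A, CENPF, BUB1 and KIF11 and higher for PTTG1, UBE2C, CDK1 and CCNB1.

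In single cells the members were concentrated in a minority of cells. For this, 14531 cells were thinned to 10000 UMIs each, and 401 shallower cells were left out. HMGB2 and PTTG1 were left out here as genes also used outside division. Of all thinned cells, 36.2% (5265) had none of the other 33 members and 12.8% (1855) had 5 or more. The limit of 5 defines a range and not a cell type: 156 cells had 5 members, 125 had 6, and 1319 had 10 or more. Cells with 5 or more had a median of 34849 UMIs before thinning, against 28961 in cells with none, and a median mitochondrial share of 7.94% against 8.15%. They had a median of 19 of 40 S-phase genes, against 2 in cells with none. The median member had 89.1% of its UMIs in cells with 5 or more other members, between 47.7% for AURKA and 96.8% for NDC80. HMGB2 had 74.1% and PTTG1 62.5% there, so the genes left out were not the least confined to these cells. AURKA and CCNB2 (61.3%), which were kept, were less confined.

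Fewer cells lay in this range with LPS. They were 14.3, 8.76 and 10.7% of cells in the SemaLPS cultures (mean 11.2 ± 2.79 SD, n = 3) and 10.2, 7.30 and 8.61% in the LPS cultures (8.69 ± 1.43). In the Sema cultures they were 20.1, 15.3 and 16.8% (17.4 ± 2.42), and in the Ctrl cultures 19.7, 9.68 and 12.4% (13.9 ± 5.17). SemaLPS cultures did not reach Sema cultures, while LPS culture 1 lay above Ctrl culture 2. The ratio of means was 0.624 for LPS against Ctrl, with 0.516, 0.754 and 0.694 within the numbers, and 0.646 for SemaLPS against Sema, with 0.711, 0.571 and 0.638. These shares are a description with no test. Cells of cultures with LPS were deeper, with medians of 29976 to 31410 UMIs against 27380 to 28210 without, and thinning removes that difference in depth. Like library size alone, thinning does not correct for a shift in RNA composition. The TMM factors, which do, were 0.919 to 0.951 with LPS and 1.05 to 1.09 without. Fewer cells of cultures with LPS exceeded 10% mitochondrial UMIs, 20.3 to 32.1% against 26.7 to 39.1%. The part of composition and of this filter in the shares was not tested.

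**Figure D4:**
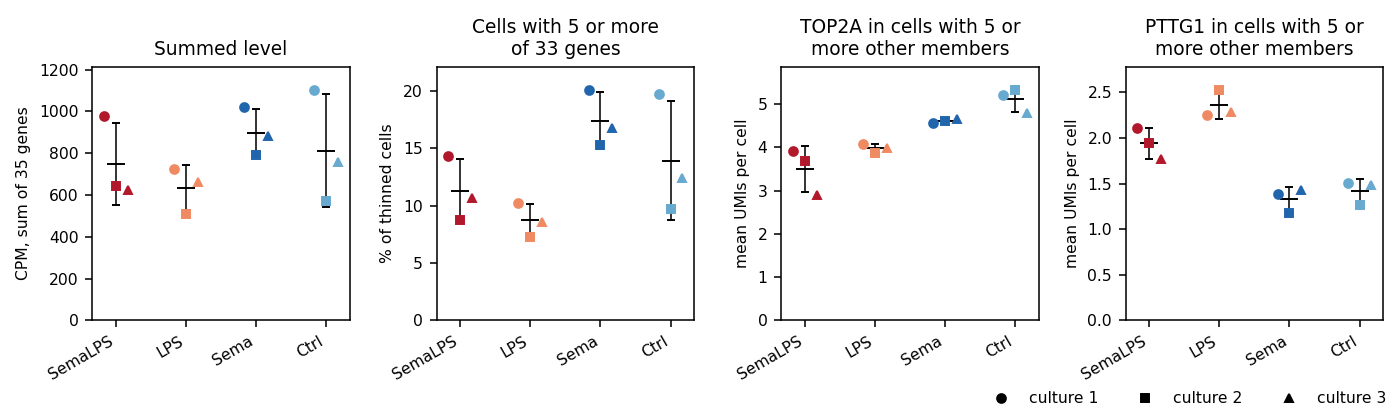
From left to right, by condition (x axes): summed CPM of the 35 genes, percent of thinned cells with 5 or more of 33 members, and mean UMIs of TOP2A and of PTTG1 per thinned cell in cells with 5 or more other members (y axes, from 0), with the mean and SD of 3 cultures. TOP2A is lower and PTTG1 higher in all 6 cultures with LPS than in all 6 without.

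The share of cells with a UMI of a member was tested with limma on the log2 odds over 12087 genes. In the average LPS effect 22 members fell and none rose, where 50.1% of all genes fell and 17.8% rose. The median change in log2 odds was −0.5 for the members and −0.24 for all genes. In LPS against Ctrl (39.6% of all genes fell and 13.8% rose) and in SemaLPS against Sema (41.6% fell and 14.2% rose) 13 members fell in each and none rose. TOP2A was found in 12.1 ± 2.73% of thinned cells in SemaLPS cultures and 9.67 ± 1.33% in LPS cultures, against 26.2 ± 2.75% in Sema and 20.9 ± 5.02% in Ctrl cultures (SD, n = 3 each). Before thinning these were 19.2, 16.5, 39.6 and 34%. Its log2 odds changed by −1.29 (SE 0.23, limma adjusted p = 0.000658) in LPS against Ctrl and −1.38 (SE 0.23, limma adjusted p = 0.000394) in SemaLPS against Sema. With the block 26 members fell in LPS against Ctrl (42.3% of all genes fell and 15.2% rose), 26 fell and 1 rose in SemaLPS against Sema (44.4% and 15.4%), and 30 fell and 1 rose over both (52.0% and 18.9%). PTTG1 was found in 21.8 ± 4.33% of SemaLPS and 19.0 ± 2.99% of LPS cells, against 17.4 ± 2.86% of Sema and 16.5 ± 4.26% of Ctrl cells, and did not pass the test (log2 odds 0.34, SE 0.18, limma adjusted p = 0.108 over both). Leaving out Ctrl-1, LPS-2 or LPS-3 gave 6, 5 and 8 members in LPS against Ctrl, and leaving out Ctrl-2 gave 21. Leaving out Sema-1, SemaLPS-2, SemaLPS-3 or Sema-3 gave 5, 6, 6 and 8 in SemaLPS against Sema.

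TOP2A and PTTG1 separated the cultures with LPS from those without in cells that carried other members. They were also the members with the largest fall and rise over all cells of the same cultures. TOP2A also separated them in cells where no other member was detected. As above, HMGB2 and PTTG1 were not counted among the other members, and detection was judged after thinning. In cells with 5 or more other members TOP2A averaged 3.92, 3.69 and 2.90 UMIs in the SemaLPS cultures and 4.08, 3.86 and 3.98 in the LPS cultures, against 4.56, 4.61 and 4.65 in the Sema and 5.21, 5.33 and 4.78 in the Ctrl cultures. PTTG1 averaged 2.11, 1.95 and 1.77 UMIs in the SemaLPS and 2.25, 2.53 and 2.29 in the LPS cultures, against 1.39, 1.18 and 1.43 in the Sema and 1.51, 1.26 and 1.48 in the Ctrl cultures. For both, the 6 cultures with LPS did not overlap with the 6 without, and no other member separated them in these cells. Over 12087 genes, 11.9% were lower and 5.28% higher with no overlap, so members separated the cultures no more often than genes in general. Thinned cells without a UMI of any other counted member were then taken. Of these, 3.3, 3.3 and 3.17% in the SemaLPS and 2.09, 3.08 and 2.44% in the LPS cultures had a TOP2A UMI. The shares were 13.6, 10.6 and 12.1% in the Sema and 9.52, 7.73 and 9.20% in the Ctrl cultures. CCNB2, BUB1, NUSAP1 and HMGB2 were also lower there in all 6 cultures with LPS, 5 members in all, and none was higher. Of all genes, 21.1% were lower and 9.51% higher there, so members again separated the cultures no more often than genes in general. For CCNB2 the shares there were 3.82 to 5.29% with LPS and 8.00 to 9.83% without. For PTTG1 they were 9.94 to 16.1% with LPS and 9.15 to 12.2% without, which overlap. Within each number the PTTG1 share was higher with LPS, in both comparisons. Free RNA in the droplets also gives such UMIs, and its part was not tested. Cells of all 12 cultures were pooled in both libraries, and over all cultures the share of such cells with a UMI ran between 0.114% for NEK2 and 14.6% for AURKA, under 1% for 16 members.

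Over the 14531 thinned cells, which share cultures, libraries and a fixed depth, the median correlation of a member with the others lay between 0.321 for KIF20A and 0.625 for MKI67. The closest pair was MKI67 and TOP2A at 0.797. Outside the 35 genes the profile most like their sum was that of PCLAF (0.755), followed by TYMS (0.735), H2AFZ (0.657), CEP55 (0.653), PRC1 (0.644), STMN1 (0.636), RRM2 (0.622), CDKN3 (0.62), ESCO2 (0.619) and HIST1H1B (0.618).

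Semagacestat was set against DMSO without LPS (Sema against Ctrl), with it (SemaLPS against LPS) and over both (the average Sema effect). The fitted log2 fold change was above 0 for 30 of 35 members without LPS and for 33 of 35 with it, with medians of 0.14 and 0.25 beside 0.00 for all genes. Within the numbers the log2 ratio of the summed members went both ways, with −0.113, 0.466 and 0.216 for Sema against Ctrl and 0.426, 0.335 and −0.082 for SemaLPS against LPS. In all 3 pairs of the same number 3 and 12 members were higher and none was lower. None passed edgeR's test in either comparison or over both. DESeq2 also called none, and the number of members with an unadjusted p under 0.05 by edgeR was 0, 0 and 1. Of all genes, 0.0% rose and 0.0133% fell in each of the first 2, and 0.0265% rose and 0.0265% fell over both. No member separated the Sema from the Ctrl cultures (6.79% of all genes were higher and 6.62% lower with no overlap), and CCNA2 was higher in every SemaLPS than in every LPS culture (5.21% higher and 4.34% lower). The comparisons of Sema with Ctrl and of LPS with Ctrl share the Ctrl cultures, and those of SemaLPS share theirs.

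With the culture number as a block, 14 members rose over both and none fell, where 4.21% of all genes rose and 2.76% fell. They were CDK1, CCNA2, AURKB, TTK, NDC80, BUB1B, BIRC5, KIF11, NUSAP1, CKAP2L, GTSE1, MKI67, NCAPG and HMGB2. In SemaLPS against LPS 7 rose (1.41% of all genes rose and 0.677% fell): CCNA2, AURKB, NDC80, BIRC5, NUSAP1, NCAPG and HMGB2. In Sema against Ctrl none passed (1.86% of all genes rose and 1.57% fell), and 14 had an unadjusted p under 0.05. The count of 7 was 0 without LPS-1, LPS-2, SemaLPS-1 or SemaLPS-2 and 2 without Sema-3. The count of 14 was 8 without LPS-1, Ctrl-2 or Sema-3 and 9 without SemaLPS-1, Sema-2, SemaLPS-2 or Ctrl-3. The count of 0 in Sema against Ctrl was 8 without Ctrl-1, 3 without Sema-1 and 1 without LPS-3.

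HMGB2, BIRC5 and NCAPG had the smallest adjusted p over both. HMGB2 stood at 56.97, 36.6 and 38.3 CPM in the SemaLPS cultures against 41.6, 26.5 and 35.7 CPM in the LPS cultures, and 57.4, 45.2 and 50.3 CPM in the Sema cultures against 59.4, 33.95 and 39.04 CPM in the Ctrl cultures. Its log2 fold change with the block was 0.29 (SE 0.05, adjusted p = 0.00392), against an adjusted p of 0.593 without it. BIRC5, survivin, a subunit of the passenger complex that carries AURKB, stood at 21.5, 13.2 and 12.1 CPM in the SemaLPS cultures against 14.8, 8.76 and 11.2 CPM in the LPS cultures, and 20.5, 13.1 and 15.7 CPM in the Sema cultures against 20.4, 10.2 and 12.4 CPM in the Ctrl cultures. It had 0.32 (SE 0.06, adjusted p = 0.00405 with the block, 0.651 without). NCAPG stood at 21.8, 15.2 and 15.5 CPM in the SemaLPS cultures against 16.1, 9.87 and 13.99 CPM in the LPS cultures, and 21.8, 18.1 and 18.2 CPM in the Sema cultures against 21.8, 12.2 and 13.5 CPM in the Ctrl cultures, with 0.35 (SE 0.07, adjusted p = 0.00409 with the block, 0.504 without). For all 3 genes the ranges overlapped in both comparisons. LCORL (19970 UMIs) lies across NCAPG (7473 UMIs) on the opposite strand, so that NCAPG is uncertain if strand was not used in counting. BIRC5 was higher with the inhibitor in all 6 pairs of cultures with the same number, HMGB2 and NCAPG in all but Sema-1 against Ctrl-1. PTTG1, CCNB1, CCNB2, CENPE and AURKA were among the members that did not pass, with averages of 0.15, 0.01, 0.06, 0.13 and −0.02 with the block.

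In single cells the share with 5 or more of 33 members had a ratio of means of 1.25 for Sema against Ctrl, with 1.02, 1.58 and 1.35 within the numbers, and of 1.29 for SemaLPS against LPS, with 1.40, 1.20 and 1.24. Without Ctrl-1 the first ratio was 1.57. No member's share of cells with a UMI passed limma's test for the inhibitor, with or without the block (0.0% of all genes in each but SemaLPS against LPS with the block, where 0.00827% rose). At an unadjusted p under 0.05, 0, 1 and 5 members stood past it without the block in Sema against Ctrl, SemaLPS against LPS and over both, and 8, 11 and 20 with it. Without Ctrl-1 and without the block there were 21, 5 and 22. Whether the LPS effect differed with and without the inhibitor was tested as an interaction. No member passed it with edgeR (0.0% of all genes were called higher and 0.0% lower), with DESeq2 or with the block (0.0531% and 0.0133%), and none had an unadjusted p under 0.05 with edgeR. The members' median interaction was 0.09 on the log2 scale.

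Other genes of the cell cycle were read from 6 further lists. Of 46 other G2 and mitosis genes, 25 fell and 1 rose in the average LPS effect, beside 35.5% and 35% of all genes, with a median log2 fold change of −0.39. PSRC1, a spindle protein, averaged 1.14 ± 0.157 CPM in SemaLPS and 1.28 ± 0.157 in LPS cultures, against 4.40 ± 0.186 in Sema and 4.1 ± 0.482 in Ctrl cultures (−1.81, SE 0.09, adjusted p = 7.31e-10). LMNB1, lamin B1 of the nuclear envelope, fell by 0.86 on the log2 scale (SE 0.09, adjusted p = 1.99e-06). Of 40 S-phase genes 31 fell and none rose, against the same shares of all genes, with a median of −0.56, among them ORC1, of the origin recognition complex (−1.09, SE 0.10, adjusted p = 3.81e-07), and MCM6, of the replicative helicase (−0.60, SE 0.07, adjusted p = 3.97e-06).

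Of 4 lists of cell cycle regulators, each had genes called in both directions, as had all genes in this comparison (35% rose and 35.5% fell). Of 19 CDK inhibitors and p53 targets, 10 rose and 7 fell. CDKN2B, an inhibitor of the G1 kinases, averaged 15.8 ± 1.75 CPM in SemaLPS and 15.3 ± 2.27 in LPS cultures, against 3.01 ± 0.642 in Sema and 3.29 ± 0.705 in Ctrl cultures (2.31, SE 0.12, adjusted p = 5.12e-10). MDM2, which degrades p53, rose by 0.91 (SE 0.03, adjusted p = 4.08e-12), and SESN1, a p53 target, fell by 1.25 (SE 0.06, adjusted p = 2.24e-10). Of 13 G1 cyclins, G1 kinases and MYC, 8 rose and 3 fell. MYC averaged 91.9 ± 5.93 CPM in SemaLPS and 102 ± 7.04 in LPS cultures, against 38.8 ± 3.40 in Sema and 40.2 ± 4.15 in Ctrl cultures (1.29, SE 0.06, adjusted p = 1.48e-10). Of 17 genes of the RB, E2F and MuvB group 6 rose and 10 fell, and among those that fell was RB1, which holds back E2F, at 144 ± 7.55 CPM in SemaLPS and 137 ± 2.84 in LPS cultures, against 225 ± 11.4 in Sema and 213 ± 16.3 in Ctrl cultures (−0.64, SE 0.04, adjusted p = 4.56e-09). Of 18 subunits and partners of the anaphase-promoting complex 9 rose and 2 fell. UBE2S, which extends the ubiquitin chains that UBE2C begins, averaged 90.1 ± 13.2 CPM in SemaLPS and 86.0 ± 10.4 in LPS cultures, against 51.4 ± 4.63 in Sema and 51.0 ± 11.2 in Ctrl cultures (0.78, SE 0.10, adjusted p = 8.08e-06).

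For the inhibitor none of the 6 lists had a gene past the threshold over both LPS states without the block, where 7 of the 46 and 30 of the 40 had an unadjusted p under 0.05. With the block 20 of the 46 other G2 and mitosis genes and 34 of the 40 S-phase genes rose and none fell, where 4.21% of all genes rose and 2.76% fell. MYBL2, B-MYB, the partner of MuvB in dividing cells, averaged 13.6 ± 2.12 CPM in SemaLPS against 9.44 ± 2.65 in LPS cultures, and 15.5 ± 2.64 in Sema against 11.3 ± 4.59 in Ctrl cultures. Its log2 fold change over both was 0.51 (SE 0.08, adjusted p = 0.00104 with the block). TK1, thymidine kinase, averaged 15.1 ± 3.10 CPM in SemaLPS against 10.2 ± 3.14 in LPS cultures, and 18.6 ± 4.22 in Sema against 14.3 ± 4.81 in Ctrl cultures (0.48, SE 0.05, adjusted p = 2.9e-05 with the block).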

How the data were processed

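Single-cell RNA-seq of 12 hashtagged cultures was read from the deposited UMI counts per gene and barcode of 2 libraries, made by the authors with Cell Ranger 6.0.1 per the file headers. The submitters' processing notes name Cell Ranger 3.0.2, Seurat 4.1.1 and hg38. Neither annotation release nor use of strand is given in the sources used here. Hashtag counts, also deposited as whole UMI counts, were called in each library above a limit, the 99th percentile of a negative binomial. It was fitted, without their top 0.5%, to the barcodes that k-means (13 clusters) put in the background. Of 28943 barcodes, 21755 had 1 hashtag, 6707 (23.17%) had several and were removed as doublets, and 481 had none. No doublet caller was run, so doublets within a culture remain. Kept were 14932 cells, with 1000 genes or more and no more than 10% mitochondrial UMIs.

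The counts of both libraries were added per culture, with 30302342 to 51286977 UMIs per culture, filtered with filterByExpr, scaled by TMM and tested with edgeR 4.0.16 (quasi-likelihood F test, 1 fit of all 12 cultures, Benjamini-Hochberg over 15066 genes, threshold 0.05). CPM are counts relative to TMM-scaled library totals. SEs were derived as the log2 fold change over the square root of F and are approximate. Shares of cells were taken after thinning to 10000 UMIs and tested with limma 3.58.1 on log2 odds over the 12087 genes found in at least 1% of cells. DESeq2 1.42.0 was an alternative. R 4.3.3, Python 3.11.15, numpy 2.4.6, pandas 2.3.3, scipy 1.17.1 and matplotlib 3.10.9 were used, and the fits were tested on simulated data.

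The labels do not say what the culture numbers mean. Over 5281 genes, deviations from the condition means correlated at 0.447 to 0.748 between cultures of the same number and at −0.567 to 0.17 between others, and all 12 cultures were closest to their own number. The numbers were therefore taken to pair the cultures. Where blocking by number changed the call of a member described by its values, the blocked result stands beside the unblocked one. Deviations from a condition mean cancel out within the condition. A positive correlation within numbers therefore lowers those between numbers, and the gap between these ranges is partly built in.

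The members and gene lists were chosen with earlier results of these data known. Values in every culture are given for the 2 members of each role with the highest mean CPM and for up to 3 members per comparison and direction with the smallest adjusted p, and of each further list up to 3 genes were eligible. Values of BIRC5, HMGB2 and NCAPG follow the same rule in the fit with the block. Library size alone, the number of cells as the scale, the 2 conditions alone with the block, and the block combined with other cell filters or left-out cultures were chosen after seeing the data.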

Additional observations from a re-analysis of the deposited data

How the results depend on the processing

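No member's direction of call reversed in the settings tried, and the counts of members past the threshold moved widely. LPS against Ctrl (6) gave 14 with no filter on low counts, 18 with library size alone, 10 with the number of cells as the scale, 3 in library 1 and 10 in library 2 alone, 3 with all cells of 1 hashtag and 3 at up to 20% mitochondrial UMIs. SemaLPS against Sema (5) gave 10 with no filter, 11 with library size alone, 8 with the 2 conditions alone, 2 with all cells of 1 hashtag and 3 at 20%. The average LPS effect (13) gave 23, 28 and 21 with no filter, library size and number of cells, 7 in library 1 alone, 8 with all cells of 1 hashtag and 8 at 20%.

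The culture number as a block gave 25, 21 and 30 in these 3 comparisons, 7 for SemaLPS against LPS (0 without it) and 14 for the average Sema effect (0 without it). For shares of cells it gave 26 and 27, against 13 and 13. It ended no call of a member. Within the block fit, Sema against Ctrl (0) gave 3 with the 2 conditions alone, 2 with all cells of 1 hashtag and 2 at 20%. SemaLPS against LPS (7) gave 2 with a top hashtag at least 3 times the second, 12 with all cells of 1 hashtag and 11 at 20%, and SemaLPS against Sema (21) gave 12 and 11. The ratio of cells with 5 or more members in SemaLPS against LPS (1.29) was 1.15 without thinning.

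Leaving out 1 culture gave 2 to 19 for LPS against Ctrl, 2 to 11 for SemaLPS against Sema, 8 to 24 for the average LPS effect and 0 for the semagacestat comparisons and the interaction. With the block it gave 13 to 30, 10 to 28 and 24 to 31 for LPS, 0 to 8 for Sema against Ctrl, 0 to 10 for SemaLPS against LPS, 8 to 20 for the average Sema effect (9 without SemaLPS-1, Sema-2, SemaLPS-2 or Ctrl-3) and 0 for the interaction. For shares it gave 5 to 21, 5 to 19 and 15 to 28 for LPS and 0 for the others. The ratios of cells with 5 or more members ran from 0.542 to 0.787 (LPS against Ctrl), 0.559 to 0.718 (SemaLPS against Sema), 1.08 to 1.57 (Sema against Ctrl) and 1.12 to 1.44 (SemaLPS against LPS). The causes of these shifts were not tested. Low members such as KIF20A have few UMIs, which limits what their tests can show.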
